A study of Mus musculus with 32 samples.

Results

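Lights-off (the onset of dark) was set against lights-on (the onset of light) in interscapular brown adipose tissue (iBAT), the fat pad between the shoulder blades that burns lipid and glucose to make heat. The comparison took the 8 libraries sampled at Zeitgeber time (ZT) 12 and ZT0, 4 mice at each, out of 32 libraries at 8 times of day, and described gene families and pathways other than the core clock. All animals were male C57BL/6J mice of 10 weeks on a chow diet and a light:dark cycle, with no allele or drug that differed between them, and each library held the total RNA of a piece of the fat pad of 1 mouse. ZT counts hours from lights on, so ZT0 opens the inactive light phase and ZT12 the active dark phase, 12 h later. The study housed its mice below thermoneutrality, so the tissue was under a mild cold load at both times. The libraries of ZT0 were sequenced on lane 2 and those of ZT12 on lane 3, and lane and time of day cannot be told apart from this pair of times alone.

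In nocturnal rodents, core temperature, activity, feeding and circulating corticosterone all follow the day. Heat-shock factors, the glucocorticoid receptor, SREBP-2 and FOXO1 each read 1 of these signals, from temperature and unfolded protein to steroid, sterol and insulin supply. Their target genes are therefore textbook reporters beside the clock itself, which runs in the adipocytes through its own transcription loop.

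Library depth was similar, with 16680401 to 18187410 counts per library at ZT0 and 16300770 to 17623593 at ZT12. Brown adipocyte markers gave 14477 summed CPM ± 965 at ZT0 and 14082 ± 2079 at ZT12, and all 12 were detected in each library. Skeletal muscle transcripts varied from 60.1 to 5999.5 summed CPM among the mice of ZT0 and from 77.7 to 8106 among those of ZT12, with none of the 15 muscle markers at 0 in all 8 libraries and none of them past the test. The first principal component (42.7% of the variance) was led by Myh1, Myh4 and Ckm and did not separate the times, while the second (24.3%) was positive in the 4 mice of ZT0 and negative in the 4 of ZT12. Mitochondrially encoded genes took 23.3% ± 1.79 of all counts at ZT0 and 23.2% ± 0.652 at ZT12 (SD, n = 4 each, two-sided exact permutation test, p = 0.857). Because these are whole-tissue samples, fewer cells of a type and less RNA per cell cannot be told apart.

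Some cell type markers moved with the time. Fibroblast markers gave 564 summed CPM ± 93.8 at ZT0 and 884 ± 138 at ZT12, macrophage markers 85.8 summed CPM ± 18.0 at ZT0 and 134 ± 20.2 at ZT12, and endothelial markers 1157 summed CPM ± 142 at ZT0 and 926 ± 46.3 at ZT12 (SD, n = 4 each). In each of these 3 lists the mice did not overlap, the two-sided exact permutation p was 0.0286, the smallest that 4 against 4 mice allow, and the value adjusted over 11 marker lists was 0.105. With scaling by library size alone the unadjusted p stayed at 0.0286 for fibroblast markers and was 0.0571 for macrophage and 0.171 for endothelial markers. Of single markers, none of 9 fibroblast genes passed the gene-wise test (edgeR), 1 of 10 macrophage genes was higher, and of 10 endothelial genes 3 were lower and 1 was higher. The endothelial sum fell largely through Kdr, with 320 CPM at ZT0 and 185 CPM at ZT12. Tie1 (129 CPM at both times), Esam (61.8 and 63.6 CPM) and Egfl7 (66.6 and 65.8 CPM) stayed nearly level, Vwf rose (20.8 and 27.6 CPM), and the other markers fell by less than Kdr.

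**Figure D1:**
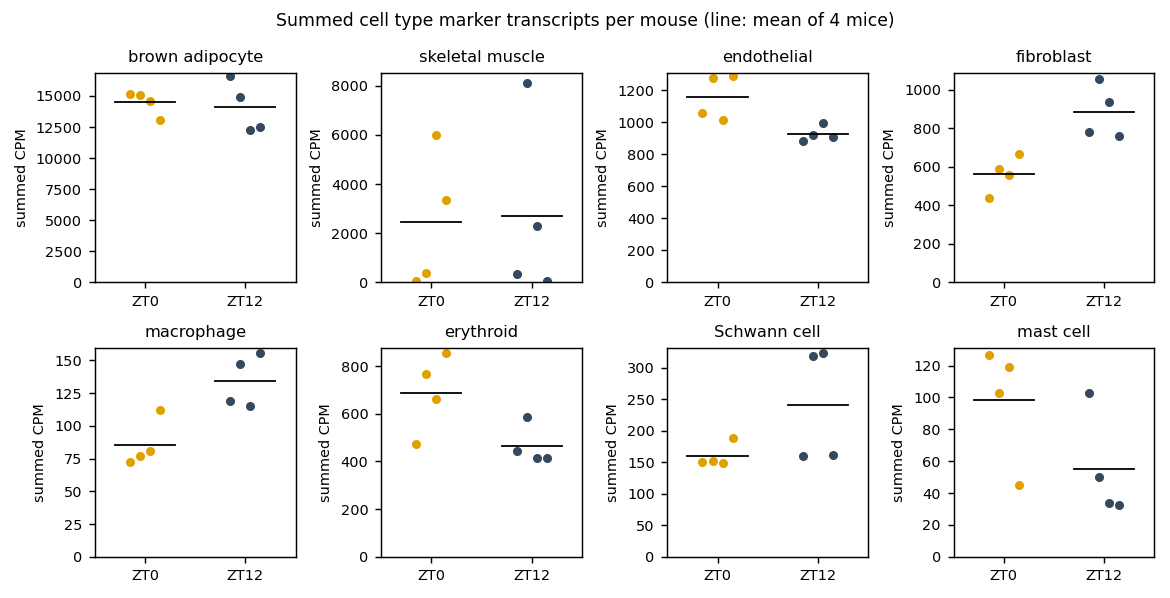
Summed transcripts of 8 cell type marker lists in CPM (counts scaled to a common library size by TMM), with 1 point per mouse and a line at the mean of 4 mice, for ZT0 and ZT12. Fibroblast and macrophage sums were higher and endothelial sums lower at ZT12 with no overlap of the mice, while muscle sums spread over more than the whole difference between the times.

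Between ZT12 and ZT0, 2459 of 15505 tested genes passed an adjusted p of 0.05 (edgeR quasi-likelihood test), which is 15.9% of them. The split was even, with 1196 genes (7.71%) higher and 1263 genes (8.15%) lower at ZT12. Scaling by library size alone turned it to 1358 higher and 930 lower, since it shifts the median log2 fold change of all genes from 0.00 to 0.05. Most of the differences were modest: the median size among called genes was 1.41-fold, and 447 exceeded 2-fold. The values of the 4 mice of one time lay outside those of the other for 16.3% of all tested genes. Without the 4 libraries with most muscle transcripts, 2 of each time and here called the muscle-rich libraries, 748 of 15896 tested genes passed. The percentages of the fit with all mice are the background against which each family below is read, and for many families the count without single mice is given, since small counts gained or lost members when 1 library was left out. Beside a single gene that lost its call, the p without a mouse is that of the mouse whose absence raised it most.

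A second contrast bears on the lane. The change from ZT0 to ZT12 was set against that from ZT3 to ZT15, which crosses the same 2 lanes with other mice, so an effect that lane adds equally to its times cancels in the difference. That difference passed the threshold for 1963 genes, 12.7% of those tested, and for 959 (39%) of the 2459 called genes. Of the called genes 1308 (53.2%) also differed between the times within lane 2 (ZT0, ZT3, ZT6) or within lane 3 (ZT9, ZT12, ZT15). These were 1192 genes in lane 2 and 406 in lane 3, some in both. The called genes were picked on the same ZT0 and ZT12 libraries, so selection raises both shares and neither is independent of the calls. For the remaining genes no value here separates lane from time.

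**Figure D2:**
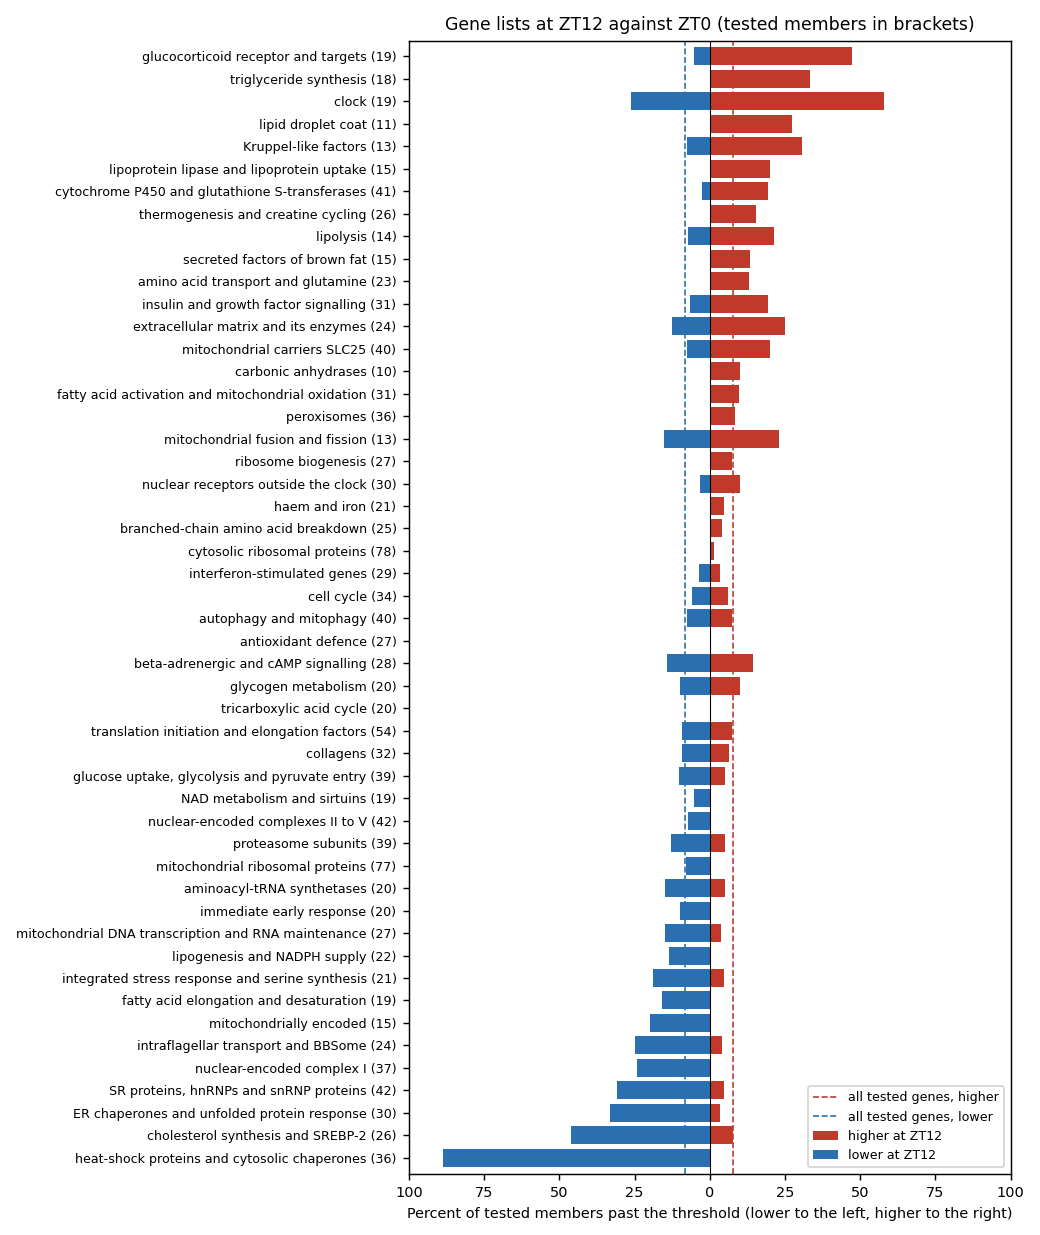
Percent of the tested members of each gene list of 10 or more tested genes that were higher (right) or lower (left) at ZT12 than at ZT0, with the number of tested members in brackets and dashed lines at the shares among all tested genes (7.71% higher, 8.15% lower). Chaperones and cholesterol synthesis reach furthest to the left, and glucocorticoid targets, triglyceride synthesis and the clock furthest to the right.

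Of 36 tested heat-shock proteins and cytosolic chaperones, which fold new and damaged proteins, 32 were lower and none was higher at ZT12 (88.9%, against 8.15% lower among all genes), with a median log2 fold change of -0.65. Hsph1, an HSP110 co-chaperone of HSP70 (ENSMUSG00000029657, chromosome 5, 149614287 to 149636376, all gene positions being those of the mouse build mm10), stood at 178, 171, 250.3 and 94.7 CPM in the 4 mice of ZT0 and 19.8, 29.2, 15.1 and 19.0 CPM in those of ZT12. Each mouse of ZT0 was above each mouse of ZT12 (log2 fold change -3.06, SE 0.35, adjusted p 9.45e-07). Hspa1b, an inducible HSP70, gave 7.45, 15.7, 19.4 and 4.45 CPM at ZT0 and 1.14, 1.63, 1.03 and 1.10 CPM at ZT12, and its neighbour Hspa1a gave 6.68, 11.8, 15.1 and 4.67 CPM at ZT0 and 1.14, 0.988, 0.971 and 1.15 CPM at ZT12. In both, every mouse of ZT0 was above every mouse of ZT12 (log2 fold change -3.26, SE 0.51, adjusted p 7.29e-05 for Hspa1b and log2 fold change -3.16, SE 0.50, adjusted p 7.56e-05 for Hspa1a), and as the genes are nearly identical in sequence the division of reads between them is uncertain.

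The abundant constitutive chaperones fell as well. Hspa8, the constitutive HSP70 (ENSMUSG00000015656, chromosome 9, 40800984 to 40810087), was at 629, 779.9, 936 and 563 CPM in the 4 mice of ZT0 and 359, 389, 266 and 325 CPM in those of ZT12. Hsp90ab1, the constitutive HSP90 (ENSMUSG00000023944, chromosome 17, 45567775 to 45573271), was at 1432, 1281, 1588 and 1315 CPM at ZT0 and 707, 716, 717 and 626 CPM at ZT12. In both, the lowest mouse of ZT0 lay above the highest of ZT12 (log2 fold change -1.12, SE 0.19, adjusted p 0.000149 for Hspa8 and log2 fold change -1.02, SE 0.14, adjusted p 1.49e-05 for Hsp90ab1).

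The inducible HSP90 Hsp90aa1 had 208 CPM ± 54.3 at ZT0 and 53.8 CPM ± 17.1 at ZT12 (SD, n = 4 each) (log2 fold change -1.95, SE 0.27, adjusted p 1.47e-05), the small heat-shock protein Hspb1 had 67.1 CPM ± 12.3 at ZT0 and 17.9 CPM ± 2.74 at ZT12 (SD, n = 4 each) (log2 fold change -1.91, SE 0.25, adjusted p 5.20e-06), and the HSP70-HSP90 adaptor Stip1 had 129.6 CPM ± 24.4 at ZT0 and 45.0 CPM ± 4.49 at ZT12 (SD, n = 4 each) (log2 fold change -1.53, SE 0.18, adjusted p 1.42e-06). The J-domain protein Dnajb1, which delivers clients to HSP70, fell by 1.41 on the log2 scale, and the HSP90 co-chaperone Chordc1 by 1.48. Subunits of the cytosolic chaperonin CCT changed less, from Cct3 (-0.68, adjusted p 5.85e-05) to Cct2 (-0.24, adjusted p 0.00214). The matrix chaperonin pair of mitochondria gave 619 CPM ± 95.8 at ZT0 and 485 CPM ± 73.4 at ZT12 (SD, n = 4 each) for Hspd1 and 128 CPM ± 26.5 at ZT0 and 90.4 CPM ± 13.7 at ZT12 (SD, n = 4 each) for Hspe1, with Hspd1 (-0.35, adjusted p 0.0147, and 0.0832 without mouse 1 of ZT0) and Hspe1 (-0.50, adjusted p 0.0178, and 0.0718 without mouse 3 of ZT12).

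The 4 members that did not pass were Hsf2 (log2 fold change -0.05, SE 0.10, adjusted p 0.782), Cryab (log2 fold change -0.63, SE 0.52, adjusted p 0.443), Hspb6 (log2 fold change 0.29, SE 0.70, adjusted p 0.823) and Hspb7 (log2 fold change 0.98, SE 1.39, adjusted p 0.684). The last 3 are small heat-shock proteins that striated muscle also makes, and their level spread widely among the mice of both times, as did the muscle markers. Hsf1, the factor that activates heat-shock genes, was lower by a small amount (log2 fold change -0.27, SE 0.08, adjusted p 0.0160, and 0.0850 without mouse 2 of ZT0). For 28 of the 36 members the mice of the times lay apart, against 16.3% of all genes.

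**Figure D3:**
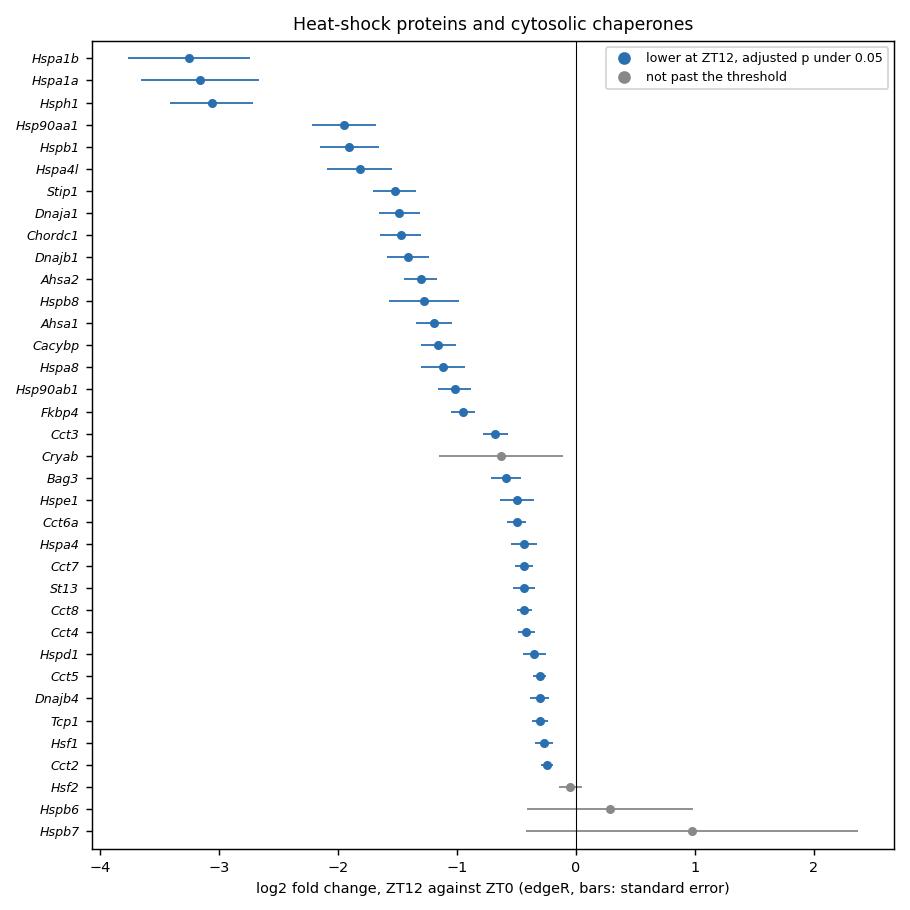
The log2 fold change at ZT12 against ZT0 for the 36 tested heat-shock proteins and cytosolic chaperones, with bars for the standard error. Members lower at ZT12 past the threshold are blue and lie between -3.26 (Hspa1b) and -0.24 (Cct2), and the 4 others are grey.

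The chaperone pattern was also present within lanes. For 29 of the 36 members the change from ZT0 to ZT12 was lower than that from ZT3 to ZT15 past the threshold (12.7% of all genes differed in either direction), and 31 of the 32 called members differed within lane 2 or lane 3. Within lane 2, Hsph1 went from 174 CPM at ZT0 through 47.6 CPM at ZT3 down to 20.3 CPM at ZT6. Within lane 3 it averaged 16.1 CPM at ZT9, stayed low at ZT12 with 20.8 CPM, and reached 127 CPM by ZT15. It was thus high at ZT0 and lower by ZT3, and low at ZT12 and higher by ZT15. The means of Hspa1b were 1.38 CPM at ZT3, 0.847 CPM at ZT9 and 12.4 CPM at ZT15, against 11.8 CPM at ZT0 and 1.22 CPM at ZT12. Without the 4 libraries that held most muscle transcripts, a choice made after seeing the data (mice 3 and 4 of ZT0 and mice 2 and 3 of ZT12), 22 members were lower past the threshold, and a fit of the 8 libraries alone gave 25.

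Promoter sequences of the chaperone genes are shown because the members move together and heat-shock factors bind a known motif. In the RefSeq promoter table (GRCm38.p6, 250 bases before to 50 after a start), 29 of the 36 members had an entry. The heat-shock motif, searched as GAANNTTC and TTCNNGAA on both strands, was present in 16 of these 29 (55.2%), in 14.0% of the 10910 tested genes with an entry and in 17.0% of all 27025 symbols in the table. Of the 16 members with a match 15 were lower at ZT12, as were 11 of the 13 without one. Capitals mark the matches in the 4 promoters below, each written on the strand of its gene, with Hsph1 (chr5:149636266-149636565, minus strand) as a member with well separated mice and 2 listed promoters, of which the one with most matches is printed, Chordc1 (chr9:18292017-18292316, plus strand) as one with 5 matches, Hspa1b (chr17:34959189-34959488, minus strand) as the one that changed most, and Hspe1 (chr1:55087898-55088197, plus strand) as a mitochondrial chaperonin with 3 overlapping matches and a small change.
Hsph1: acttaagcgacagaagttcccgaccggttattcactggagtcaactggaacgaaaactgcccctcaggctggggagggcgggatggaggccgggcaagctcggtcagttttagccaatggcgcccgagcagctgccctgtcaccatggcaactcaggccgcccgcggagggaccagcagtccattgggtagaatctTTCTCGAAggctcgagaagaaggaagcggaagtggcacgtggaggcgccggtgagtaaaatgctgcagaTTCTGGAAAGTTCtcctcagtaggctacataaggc
Chordc1: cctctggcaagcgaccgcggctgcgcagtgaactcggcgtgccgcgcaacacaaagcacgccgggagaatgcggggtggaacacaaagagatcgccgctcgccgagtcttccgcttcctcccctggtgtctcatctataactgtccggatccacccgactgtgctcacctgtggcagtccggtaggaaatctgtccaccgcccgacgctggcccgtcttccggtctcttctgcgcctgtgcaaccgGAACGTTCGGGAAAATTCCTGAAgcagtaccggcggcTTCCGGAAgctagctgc
Hspa1b: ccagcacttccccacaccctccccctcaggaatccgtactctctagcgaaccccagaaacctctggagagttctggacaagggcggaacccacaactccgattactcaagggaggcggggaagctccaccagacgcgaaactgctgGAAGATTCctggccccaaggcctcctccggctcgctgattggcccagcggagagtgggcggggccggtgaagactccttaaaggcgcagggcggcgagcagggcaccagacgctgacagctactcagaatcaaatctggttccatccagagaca
Hspe1: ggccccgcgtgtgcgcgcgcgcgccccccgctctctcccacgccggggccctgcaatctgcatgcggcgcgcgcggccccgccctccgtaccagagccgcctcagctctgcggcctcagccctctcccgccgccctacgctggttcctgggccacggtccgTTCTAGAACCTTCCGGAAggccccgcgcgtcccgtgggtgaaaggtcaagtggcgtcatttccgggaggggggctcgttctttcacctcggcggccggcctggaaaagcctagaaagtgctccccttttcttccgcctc

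The number of matches did not order the members by size of change: Chordc1 held 5 matches with a log2 fold change of -1.48, and Hspa1b held 1 with -3.26. A match is a string of letters in a window and was not read as a bound site.

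Of the cold-inducible RNA-binding proteins, Cirbp moved opposite to the chaperones and Rbm3 did not pass. Cirbp (ENSMUSG00000045193, chromosome 10, 80165985 to 80172786) was at 14.0, 15.3, 12.0 and 23.2 CPM in the 4 mice of ZT0 and 29.1, 30.5, 34.1 and 26.2 CPM in those of ZT12. Every mouse of ZT12 was above every mouse of ZT0, the nearest being 26.2 and 23.2 CPM (log2 fold change 0.89, SE 0.18, adjusted p 0.000937). Its mean was 33.0 CPM at ZT3 and 13.9 CPM at ZT15, so its change also differed from that between ZT3 and ZT15 (2.14, adjusted p 2.69e-06). Rbm3 had 35.9 CPM ± 3.56 at ZT0 and 36.6 CPM ± 4.33 at ZT12 (SD, n = 4 each) (log2 fold change 0.03, SE 0.12, adjusted p 0.901).

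Of 24 tested genes of the extracellular matrix and its enzymes 3 were lower and 6 higher, and the 3 lower ones act on procollagen. P4ha1, the catalytic subunit of prolyl 4-hydroxylase (ENSMUSG00000019916, chromosome 10, 59323296 to 59373304), was at 60.6, 72.5, 79.5 and 46.9 CPM in the 4 mice of ZT0 and 12.4, 14.9, 13.6 and 13.5 CPM in those of ZT12. The groups were far apart (log2 fold change -2.25, SE 0.26, adjusted p 1.02e-06). Serpinh1, the collagen chaperone HSP47 (ENSMUSG00000070436, chromosome 7, 99345376 to 99353239), was at 336, 409, 491 and 353 CPM at ZT0 and 177, 167, 146 and 157 CPM at ZT12, again with no overlap (log2 fold change -1.29, SE 0.14, adjusted p 5.17e-07). P4ha2 fell too (log2 fold change -0.94, SE 0.22, adjusted p 0.00358). For these genes the change differed from that between ZT3 and ZT15 (P4ha1 -2.99, adjusted p 3.69e-06, Serpinh1 -1.43, adjusted p 2.80e-05 and P4ha2 -2.27, adjusted p 1.84e-05).

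The count of higher members of this list was 3 without mouse 1 of ZT0 or mouse 2 of ZT12 and 1 without the muscle-rich libraries. The higher ones included the tissue inhibitor Timp2 with 26.4 CPM ± 7.95 at ZT0 and 60.5 CPM ± 18.6 at ZT12 (SD, n = 4 each) (log2 fold change 1.19, SE 0.35, adjusted p 0.0188, and 0.0720 without mouse 2 of ZT12), Timp4 (0.79, adjusted p 0.00803) and the matrix glycoprotein Tnxb (0.74, adjusted p 0.000373). Of 32 tested collagens 2 were higher and 3 lower (15.6% called, near the 15.9% of all genes), with a median log2 fold change of 0.32. The higher count was 1 without mouse 1 or mouse 3 of ZT0 or mouse 1, 2 or 3 of ZT12, and 4 without mouse 4 of ZT0. The fit of the 8 libraries alone gave 5 higher and 0 lower, DESeq2 5 and 3, and the fit without the muscle-rich libraries 3 and 0. The basement membrane pair Col4a1 (-0.42, adjusted p 0.000900) and Col4a2 (-0.35, adjusted p 0.00631) fell, while the fibril-associated Col12a1 rose with 18.0 CPM ± 4.06 at ZT0 and 32.5 CPM ± 5.77 at ZT12 (SD, n = 4 each) (log2 fold change 0.85, SE 0.16, adjusted p 0.000681). The fibrillar Col1a1 had 66.0 CPM ± 11.9 at ZT0 and 111 CPM ± 24.4 at ZT12 (SD, n = 4 each) and did not pass (log2 fold change 0.75, SE 0.33, adjusted p 0.116), yet 14 of the 32 collagens changed more upwards than between ZT3 and ZT15 (12.7% of all genes differed in either direction). Fibroblast marker transcripts, from 440.6 to 666 summed CPM at ZT0 and from 763 to 1056 at ZT12, moved with the higher members, but the sum is mostly made of Col1a1, Col1a2 and Col3a1, which the collagen list also holds, so it is no separate measure of them. Pdgfra, a member of the fibroblast sum but of neither the collagen nor the matrix list, averaged 11.7 ± 1.16 CPM at ZT0 and 15.6 ± 2.58 at ZT12 (SD, n = 4 each, adjusted p 0.129, edgeR). Endothelial markers, from 1014 to 1285 at ZT0 and from 885 to 992 at ZT12, moved with the lower pair, but the fall of their sum was largely that of Kdr. The part of either cell type in these changes was not tested.

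**Figure D4:**
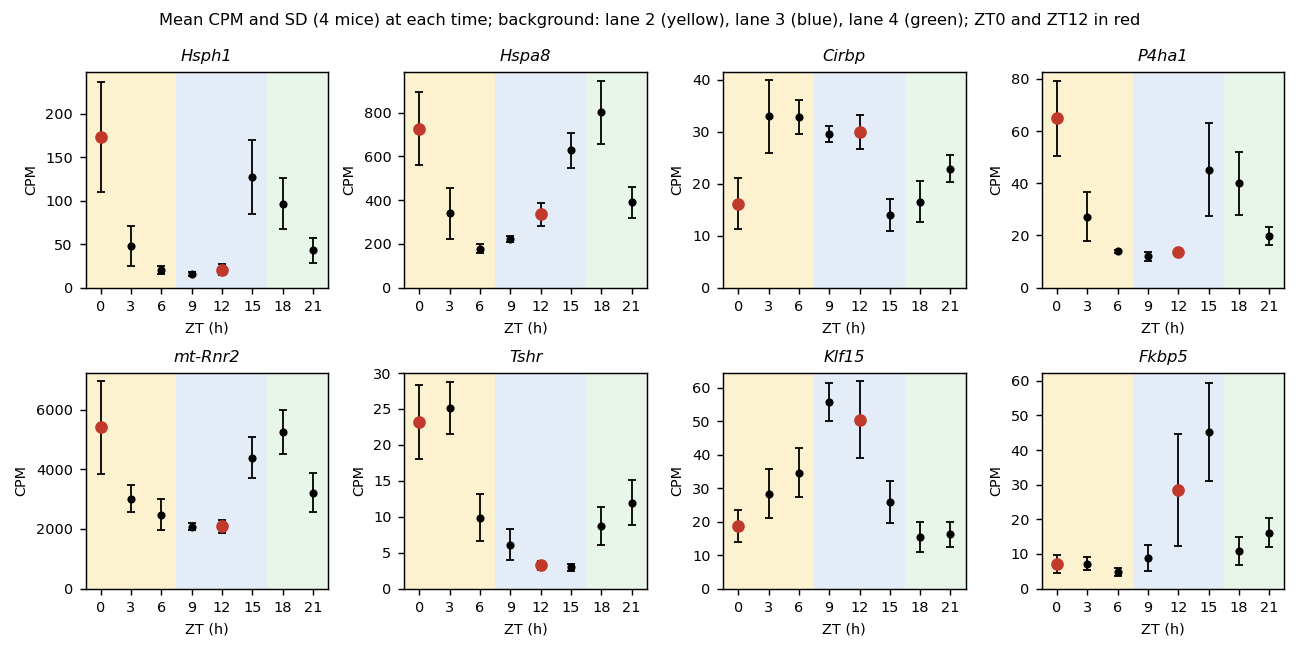
Mean CPM with SD (4 mice) of 8 genes at all 8 times, with ZT0 and ZT12 in red and the background coloured by sequencing lane (2 yellow, 3 blue, 4 green). Hsph1, Hspa8, P4ha1 and mt-Rnr2 are high at ZT0 and low at ZT12 and change within lanes 2 and 3, Cirbp runs opposite, Tshr declines from ZT3 to ZT15, Klf15 is highest at ZT9 and ZT12, and Fkbp5 at ZT12 and ZT15.

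Of 30 tested ER chaperones and genes of the unfolded protein response 10 were lower and 1 was higher, with a median log2 fold change of -0.14, and the count of lower members went down to 6 without mouse 3 of ZT0 or mouse 3 of ZT12 and to 3 without the muscle-rich libraries. Creld2, an ER-stress-induced foldase partner, was at 8.34, 11.8, 9.41 and 9.23 CPM in the 4 mice of ZT0 and 5.88, 5.47, 5.40 and 6.63 CPM in those of ZT12. The mice did not overlap (log2 fold change -0.73, SE 0.14, adjusted p 0.000584). Manf fell likewise (log2 fold change -0.67, SE 0.10, adjusted p 5.78e-05), and so did the major lumenal chaperones BiP, Hspa5 (-0.24, adjusted p 0.0207, and 0.0696 without mouse 3 of ZT12), and GRP94, Hsp90b1 (-0.35, adjusted p 0.000788). Without mouse 3 or mouse 4 of ZT0 2 members were higher, and 0 without the muscle-rich libraries. The member that rose was Herpud1, a scaffold of ER-associated degradation, at 57.3, 62.8, 59.8 and 67.2 CPM at ZT0 and 83.8, 117, 102 and 96.0 CPM at ZT12 (log2 fold change 0.69, SE 0.13, adjusted p 0.000532).

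In the integrated stress response and serine synthesis list 4 of 21 members were lower and 1 was higher. The higher one, Ddit4, had the largest change of the list (2.13) and is described below. The median log2 fold change was 0.14, with 13 members above 0 and 8 below, and the lower count was 2 without the muscle-rich libraries. Atf5, a transcription factor induced by mitochondrial and amino acid stress, was at 115, 135, 168 and 171 CPM in the 4 mice of ZT0 and 72.9, 67.6, 69.1 and 55.2 CPM in those of ZT12. The mice did not overlap (log2 fold change -1.15, SE 0.18, adjusted p 8.92e-05), and its change was not distinguishable from that between ZT3 and ZT15 (-0.17, adjusted p 0.711). The serine pathway enzyme Psph (-0.77, adjusted p 0.00971, with overlap of the mice) and the stress factor Nupr1 (-0.72, adjusted p 0.000434) also fell.

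Targets of the glucocorticoid receptor had the largest share of higher members outside the clock among lists of 10 or more tested genes. Of 19 tested, 9 were higher and 1 was lower at ZT12 (7.71% and 8.15% among all genes), with a median log2 fold change of 0.63. Fkbp5, a co-chaperone that the receptor induces and that restrains it (ENSMUSG00000024222, chromosome 17, 28399094 to 28517527), was at 6.10, 5.33, 10.9 and 5.84 CPM in the 4 mice of ZT0 and 15.6, 27.3, 19.3 and 51.8 CPM in those of ZT12. Mouse 3 of ZT0 was above its group and still below each mouse of ZT12 (log2 fold change 2.02, SE 0.36, adjusted p 0.000318). Ddit4, an inhibitor of mTORC1, was at 5.97, 12.3, 8.34 and 10.6 CPM at ZT0 and 30.7, 50.2, 45.6 and 37.0 CPM at ZT12 with no overlap (log2 fold change 2.13, SE 0.26, adjusted p 2.82e-06). Tsc22d3 (GILZ), a classic steroid-induced gene, had 39.2 CPM ± 7.75 at ZT0 and 84.6 CPM ± 15.1 at ZT12 (SD, n = 4 each) (log2 fold change 1.11, SE 0.17, adjusted p 6.51e-05), and Nfkbia had 27.8 CPM ± 6.91 at ZT0 and 53.4 CPM ± 5.73 at ZT12 (SD, n = 4 each) (log2 fold change 0.94, SE 0.17, adjusted p 0.000280).

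The members did not share one course over the day. For Fkbp5 the mean was 8.81 CPM at ZT9 and 45.3 CPM at ZT15, and its change was not distinguishable from that between ZT3 and ZT15 (-0.64, adjusted p 0.425). Ddit4 fell back to 16.6 CPM at ZT15, and there the difference passed (2.17, adjusted p 0.000283). Cdkn1a, a cell cycle inhibitor that was the exception of the list, was at 98.8, 79.8, 117 and 65.1 CPM at ZT0 and 27.2, 42.6, 31.4 and 46.3 CPM at ZT12 (log2 fold change -1.29, SE 0.23, adjusted p 0.000301). The receptor gene itself, Nr3c1, had 125 CPM ± 7.13 at ZT0 and 141 CPM ± 14.2 at ZT12 (SD, n = 4 each) (log2 fold change 0.18, SE 0.09, adjusted p 0.171). Sgk1, a kinase under both steroid and insulin control, was at 27.9, 40.3, 40.4 and 27.9 CPM at ZT0 and 54.0, 81.1, 53.8 and 52.9 CPM at ZT12 (log2 fold change 0.83, SE 0.25, adjusted p 0.0225, and 0.0955 without mouse 2 of ZT12).

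Kruppel-like factors, zinc-finger transcription factors of metabolism and differentiation, had 4 higher and 1 lower of 13 tested members. Klf15, which drives amino acid breakdown and is a receptor target (ENSMUSG00000030087, chromosome 6, 90462576 to 90475238), was at 19.1, 13.8, 16.6 and 25.1 CPM in the 4 mice of ZT0 and 34.1, 54.5, 52.8 and 60.6 CPM in those of ZT12. The groups did not overlap (log2 fold change 1.44, SE 0.23, adjusted p 8.63e-05). Klf9 gave 76.8, 54.0, 73.6 and 52.1 CPM at ZT0 and 110.3, 141, 119.9 and 133 CPM at ZT12 (log2 fold change 0.98, SE 0.11, adjusted p 7.44e-07), Klf13 had 60.7 CPM ± 13.6 at ZT0 and 118 CPM ± 8.93 at ZT12 (SD, n = 4 each) (log2 fold change 0.96, SE 0.13, adjusted p 1.54e-05), and Klf2, a factor of quiescent endothelium and lymphocytes, gave 12.8, 18.6, 15.8 and 13.1 CPM at ZT0 and 25.2, 26.6, 35.3 and 32.8 CPM at ZT12 (log2 fold change 0.99, SE 0.27, adjusted p 0.0128). Klf7 was the lower member (log2 fold change -0.32, SE 0.11, adjusted p 0.0439, and 0.161 without mouse 2 of ZT0), and it was also not called without mouse 1 of ZT0 or mouse 1, 2 or 4 of ZT12. All 5 changed otherwise than between ZT3 and ZT15, for example Klf15 by 1.57, adjusted p 0.00167.

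The Klf15 promoter is shown because it holds 3 E-boxes, the motif CACGTG that CLOCK and BMAL1 read (chr6:90462326-90462625, plus strand, matches in capitals). E-boxes were in 15.2% of 889 promoters of genes higher at ZT12, 10.1% of 917 of genes lower and 11.2% of 9104 of the other tested genes, against 8.09% of all symbols in the table.
Klf15: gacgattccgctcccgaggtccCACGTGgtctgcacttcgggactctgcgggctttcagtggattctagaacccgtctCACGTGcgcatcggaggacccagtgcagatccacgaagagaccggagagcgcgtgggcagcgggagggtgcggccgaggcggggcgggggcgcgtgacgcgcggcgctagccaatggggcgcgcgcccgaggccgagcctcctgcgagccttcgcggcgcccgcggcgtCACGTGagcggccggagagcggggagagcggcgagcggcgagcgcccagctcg

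Shares of the other motifs were as follows. The heat-shock motif was in 12.5% of promoters of higher and 15.5% of those of lower genes (14.0% of the genes not called). The D-box, TTATGTAA or TTACGTAA, was in 1.46% and 0.981% (0.791%), the ROR element TAGGTCA in 2.02% and 2.84% (2.19%), and the cyclic AMP element TGACGTCA in 2.36% and 3.60% (3.51%), on both strands and with no test.

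In insulin and growth factor signalling 6 of 31 tested members were higher and 2 lower. The lower count was 4 without mouse 2 of ZT0, and without the muscle-rich libraries 3 were higher and 0 lower. Foxo1, the factor that insulin holds out of the nucleus (ENSMUSG00000044167, chromosome 3, 52268336 to 52353221), was at 42.0, 41.5, 48.0 and 50.4 CPM in the 4 mice of ZT0 and 97.5, 103, 98.4 and 98.7 CPM in those of ZT12. Its 8 values fell into 2 tight groups (log2 fold change 1.13, SE 0.13, adjusted p 1.33e-06), and it differed within lane 2 (adjusted p 0.0161) and lane 3 (adjusted p 0.00276) as well (from 45.5 CPM at ZT0 to 65.6 CPM at ZT6, and from 82.4 CPM at ZT9 to 99.4 CPM at ZT12 before 59.9 CPM at ZT15). The related Foxo3 (0.61, adjusted p 0.00804) and the kinase gene Akt1 (0.57, adjusted p 0.000187) rose less. Trib2, a pseudokinase of the Tribbles family, was lower at 21.2, 25.6, 24.4 and 24.8 CPM at ZT0 and 13.9, 11.6, 18.5 and 15.7 CPM at ZT12 (log2 fold change -0.69, SE 0.14, adjusted p 0.00137), as was the glucose transport regulator Tbc1d4 (log2 fold change -0.66, SE 0.13, adjusted p 0.000612). Irs2 had 15.4 CPM ± 10.3 at ZT0 and 32.5 CPM ± 9.95 at ZT12 (SD, n = 4 each) and did not pass (log2 fold change 1.07, SE 0.69, adjusted p 0.305).

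**Figure D5:**
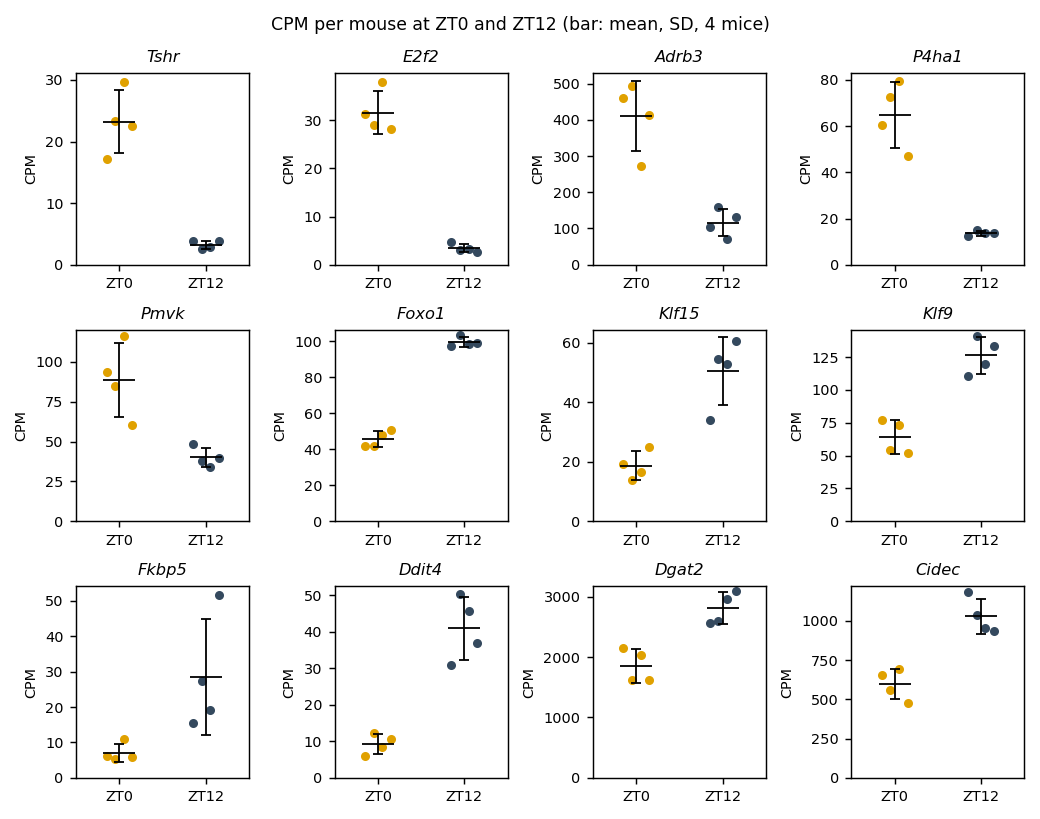
CPM of 12 genes in each of the 4 mice at ZT0 and at ZT12, with a bar for the mean and SD. Tshr, E2f2, Adrb3, P4ha1 and Pmvk were lower and Foxo1, Klf15, Klf9, Fkbp5, Ddit4, Dgat2 and Cidec higher at ZT12, and in each of the 12 genes the mice of the times did not overlap.

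Of 18 tested triglyceride synthesis genes 6 were higher at ZT12 and none was lower (median log2 fold change 0.37). Dgat2, the last enzyme of the pathway (ENSMUSG00000030747, chromosome 7, 99153658 to 99182719), was at 2155, 1615, 2039 and 1627 CPM in the 4 mice of ZT0 and 2569, 2609, 2973 and 3101 CPM in those of ZT12. All mice of ZT12 were above those of ZT0 (log2 fold change 0.60, SE 0.13, adjusted p 0.00216). Gpat4, an acyltransferase of the first step, rose, with 315, 182, 263 and 207 CPM at ZT0 and 407, 422, 395 and 352 CPM at ZT12 (log2 fold change 0.70, SE 0.17, adjusted p 0.00440). So did Gpat3 (0.94, adjusted p 0.00447) of the same step, the acyltransferase Agpat1 (0.43, adjusted p 0.000813) and the phosphatidate phosphatase Lpin3 (0.89, adjusted p 0.000393). Without the muscle-rich libraries the higher count was 2. The mitochondrial isoform Gpam had 198 CPM ± 53.8 at ZT0 and 264 CPM ± 55.2 at ZT12 (SD, n = 4 each) and did not pass (log2 fold change 0.41, SE 0.19, adjusted p 0.151).

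Of 11 lipid droplet coat genes 3 were higher and none lower. Cidec, which fuses droplets, was at 656, 559, 692 and 479 CPM in the 4 mice of ZT0 and 1186, 1039.7, 955 and 935 CPM in those of ZT12, without overlap (log2 fold change 0.79, SE 0.14, adjusted p 0.000229). Plin4 (log2 fold change 0.61, SE 0.15, adjusted p 0.00778) and Plin5 (log2 fold change 0.37, SE 0.11, adjusted p 0.0258, and 0.0795 without mouse 4 of ZT0) also rose, whereas Plin1 had 1095 CPM ± 59.6 at ZT0 and 1097 CPM ± 104 at ZT12 (SD, n = 4 each) (log2 fold change 0.00, SE 0.08, adjusted p 0.985) and Plin2 743 CPM ± 223 at ZT0 and 522 CPM ± 211 at ZT12 (SD, n = 4 each) (log2 fold change -0.51, SE 0.33, adjusted p 0.317). Of the 14 lipolysis genes 3 were higher, among them Pnpla2, the first triglyceride lipase, at 2567, 2506, 2701 and 2411 CPM at ZT0 and 3216, 3017, 3141 and 3112 CPM at ZT12 (log2 fold change 0.29, SE 0.06, adjusted p 0.000840), and the fatty acid carrier Fabp5 was lower (log2 fold change -0.59, SE 0.17, adjusted p 0.0171, and 0.0623 without mouse 3 of ZT12), a call also lost without mouse 3 of ZT0 or mouse 2 of ZT12. The hormone-sensitive lipase gene Lipe did not pass (log2 fold change 0.10, SE 0.13, adjusted p 0.630).

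Of 15 tested genes of lipoprotein lipase and lipoprotein uptake 3 were higher, led in abundance by Lpl, the lipase that frees fatty acids from lipoproteins, with 3565, 2986, 3239.7 and 2501 CPM in the 4 mice of ZT0 and 5629, 5047, 4299 and 4299 CPM in those of ZT12. The mice did not overlap (log2 fold change 0.65, SE 0.12, adjusted p 0.000581). The lipoprotein receptor Lrp1 was at 185, 153, 204 and 223 CPM at ZT0 and 262, 300.0, 356 and 370.2 CPM at ZT12 (log2 fold change 0.75, SE 0.17, adjusted p 0.00270). The changes of Dgat2, Cidec, Pnpla2 and Lpl were close to those between ZT3 and ZT15 (-0.03, adjusted p 0.928 for Dgat2, -0.02, adjusted p 0.954 for Cidec, 0.10, adjusted p 0.434 for Pnpla2 and 0.15, adjusted p 0.626 for Lpl), and none of the 4 differed within lane 2 or within lane 3 (lowest adjusted p 0.268, for Dgat2 in lane 3), so for these genes lane and time cannot be told apart.

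Of 31 genes of fatty acid activation and oxidation 3 were higher and none lower (9.68% called, against 15.9% of all genes called and 7.71% higher). The higher count was 1 without mouse 2 of ZT12, 5 with DESeq2 and 6 with scaling by library size alone. Cpt1a, the liver-type gate of mitochondrial import, was at 9.05, 12.3, 10.2 and 11.6 CPM in the 4 mice of ZT0 and 17.4, 19.5, 22.3 and 18.9 CPM in those of ZT12, with no overlap (log2 fold change 0.86, SE 0.10, adjusted p 1.42e-06). It differed within lane 2 (adjusted p 1.40e-06) and lane 3 (adjusted p 0.0441). Acsl1, which activates fatty acids, was higher by a smaller and less certain amount (log2 fold change 0.52, SE 0.16, adjusted p 0.0261, and 0.115 without mouse 1 of ZT12). Among 36 peroxisomal genes 3 were higher and none lower (8.33%, near the 7.71% higher among all genes). The higher count was 5 without mouse 1 of ZT0, 7 with scaling by library size alone and 0 without the muscle-rich libraries. The thioesterase Acot4 was at 2.44, 2.37, 2.62 and 1.72 CPM at ZT0 and 8.95, 5.93, 6.19 and 4.44 CPM at ZT12 (log2 fold change 1.48, SE 0.30, adjusted p 0.00130).

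Of 22 tested genes of lipogenesis and NADPH supply 3 were lower and none higher (13.6% called, below the 15.9% of all genes). Yet 19 had a log2 fold change below 0 and the median was -0.53. Scd2, a fatty acid desaturase, was at 701, 717, 1247 and 593 CPM in the 4 mice of ZT0 and 362, 199, 199.9 and 272 CPM in those of ZT12. The highest mouse of ZT12 was below the lowest of ZT0 (log2 fold change -1.66, SE 0.45, adjusted p 0.0121, and 0.0523 without mouse 3 of ZT0). The ChREBP gene Mlxipl (log2 fold change -0.80, SE 0.27, adjusted p 0.0464, and 0.126 without mouse 3 of ZT12) and malic enzyme Me1 (log2 fold change -1.26, SE 0.43, adjusted p 0.0445, and 0.164 without mouse 3 of ZT0) passed narrowly. Acly, the citrate lyase that makes cytosolic acetyl-CoA, had 5520.1, 4046, 7361 and 3275 CPM at ZT0 and 3177, 1698, 1686 and 1889 CPM at ZT12, which did not overlap but did not pass in the fit of all times (log2 fold change -1.26, SE 0.51, adjusted p 0.0932), and Fasn had 24748 CPM ± 8484 at ZT0 and 17506 CPM ± 4653 at ZT12 (SD, n = 4 each) (log2 fold change -0.50, SE 0.48, adjusted p 0.520). Mouse 3 of ZT0 was the highest for Scd2, Me1, Mlxipl, Acly and Fasn. Without it no member was called, without mouse 1 of ZT0 or without mouse 2, 3 or 4 of ZT12, in turn, 1 was, and the count was 6 without mouse 4 of ZT0 and with DESeq2, 7 without mouse 1 of ZT12 and 0 without the muscle-rich libraries.

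Of 26 tested genes of cholesterol synthesis and SREBP-2 12 were lower and 2 higher at ZT12, with a median log2 fold change of -0.64, and 24 had a value below 0. Pmvk, phosphomevalonate kinase (ENSMUSG00000027952, chromosome 3, 89454541 to 89469013), was at 93.6, 85.0, 116 and 60.1 CPM in the 4 mice of ZT0 and 48.4, 37.7, 33.9 and 40.0 CPM in those of ZT12. Its groups did not overlap (log2 fold change -1.15, SE 0.28, adjusted p 0.00602). Pmvk did not differ within lane 2 (adjusted p 0.219) or lane 3 (adjusted p 0.933), nor did its change differ from that between ZT3 and ZT15 (adjusted p 0.217). Sqle, the rate-limiting epoxidase of the later steps, was at 25.1, 27.8, 49.7 and 16.1 CPM at ZT0 and 18.4, 6.92, 5.95 and 10.3 CPM at ZT12, with mouse 1 of ZT12 above mouse 4 of ZT0 (log2 fold change -1.51, SE 0.42, adjusted p 0.0147, and 0.0808 without mouse 3 of ZT0). Cyp51, which acts after Sqle (-0.98, adjusted p 0.0199, and 0.0951 without mouse 3 of ZT0), and the early synthase Hmgcs1 (-0.63, adjusted p 0.00860) fell. The higher members were Scap (0.31, adjusted p 0.0186, and 0.0712 without mouse 2 of ZT0) and Fdft1 (0.54, adjusted p 0.0415, and 0.134 without mouse 4 of ZT0). The count of higher members was 0 without mouse 2 of ZT0 and 1 without mouse 4 of ZT0 or mouse 1, 3 or 4 of ZT12. The count of lower members went from 12 to 4 without mouse 3 of ZT0 or mouse 3 of ZT12, to 6 without mouse 2 of ZT12, to 7 without mouse 4 of ZT12, and to 1 without the 4 muscle-rich libraries.

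In beta-adrenergic and cAMP signalling 4 of 28 tested members were higher and 4 lower. The higher count was 2 without mouse 2 or mouse 3 of ZT0 and 1 without mouse 2 of ZT12, and the lower count was 2 without mouse 3 of ZT0. Adrb3, the main noradrenaline receptor of brown adipocytes (ENSMUSG00000031489, chromosome 8, 27225776 to 27250616), was at 461, 493, 273 and 413 CPM in the 4 mice of ZT0 and 103, 158, 71.6 and 131 CPM in those of ZT12. The lowest mouse of ZT0, at 273 CPM, was well above the highest of ZT12, at 158 CPM (log2 fold change -1.82, SE 0.29, adjusted p 8.31e-05). It also differed within lane 2 (adjusted p 0.00772, from 409.9 CPM at ZT0 to 179.8 CPM at ZT6), and its change was not distinguishable from that between ZT3 and ZT15 (-0.79, adjusted p 0.193). The adenylyl cyclase Adcy9 was higher, at 15.0, 10.2, 21.9 and 28.4 CPM at ZT0 and 24.1, 35.6, 44.4 and 38.5 CPM at ZT12, with mouse 1 of ZT12 below mouse 4 of ZT0 (log2 fold change 0.92, SE 0.21, adjusted p 0.00398), and the phosphodiesterase Pde4b, which breaks cAMP down, was lower (log2 fold change -0.83, SE 0.21, adjusted p 0.00722).

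Thermogenic genes had a called share near the background. Of 26 tested members 4 were higher and none lower (15.4% called, against 15.9% of all genes called and 7.71% higher). The higher count was 0 without mouse 2 of ZT0, 1 without mouse 1 of ZT0 or mouse 3 of ZT12, and 2 without mouse 1 or mouse 2 of ZT12. Ucp1, the uncoupling protein that defines the tissue, had 2929, 2346, 3116 and 2027 CPM in the 4 mice of ZT0 and 4061, 3166, 1860.0 and 1399 CPM in those of ZT12. The mice of ZT12 spanned those of ZT0 (log2 fold change 0.01, SE 0.28, adjusted p 0.988). Dio2, which makes active thyroid hormone, had 26.0 CPM ± 4.05 at ZT0 and 47.8 CPM ± 28.4 at ZT12 (SD, n = 4 each) and Ppargc1a 31.1 CPM ± 4.49 at ZT0 and 44.5 CPM ± 11.5 at ZT12 (SD, n = 4 each), and neither passed (log2 fold change 0.88, SE 0.67, adjusted p 0.400 and log2 fold change 0.51, SE 0.27, adjusted p 0.201). The nuclear receptor gene Esrrg was higher (log2 fold change 0.51, SE 0.15, adjusted p 0.0203, and 0.0940 without mouse 2 of ZT0).

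Of the 15 mitochondrially encoded genes for ribosomal RNAs and proteins, 3 were lower, both ribosomal RNAs and mt-Nd6, and with scaling by library size alone 1 was also higher. mt-Rnr2, the 16S rRNA, was at 4052, 6511, 6992 and 4045 CPM in the 4 mice of ZT0 and 2256, 2048, 1780.0 and 2242 CPM in those of ZT12. The groups lay far apart (log2 fold change -1.38, SE 0.18, adjusted p 3.77e-06). mt-Rnr1, the 12S rRNA, was at 2309, 3212, 3009 and 1816 CPM at ZT0 and 1286, 1163, 1009.5 and 1343 CPM at ZT12 (log2 fold change -1.11, SE 0.15, adjusted p 1.27e-05). Both differed within lanes 2 and 3 and changed otherwise than between ZT3 and ZT15 (-1.92, adjusted p 9.65e-06 and -1.65, adjusted p 1.22e-05). Reads of ribosomal RNA can also depend on how a library was prepared, and that part was not tested. mt-Nd6, a complex I subunit, was lower (log2 fold change -0.80, SE 0.23, adjusted p 0.0206, and 0.109 without mouse 1 of ZT0). It lies on the light strand, and since strand use in the counting is not given in the sources used here, its reads and those of the transcript opposite cannot be told apart. The other 12 protein-coding genes lay between -0.16 and 0.26 on the log2 scale and did not pass. Mitochondrial tRNA genes are not in this list, and several were lower, such as mt-Tp, which also lies on the light strand (log2 fold change -2.58, SE 0.46, adjusted p 0.000318).

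Nuclear genes for respiratory complex I had 9 lower and none higher of 37 tested (median log2 fold change -0.16), such as Ndufb6 at 233, 244, 233 and 191 CPM at ZT0 and 189, 178, 150.3 and 167 CPM at ZT12 (log2 fold change -0.40, SE 0.10, adjusted p 0.00758). The lower count ranged from 4 (without mice 1, 2 or 3 of ZT0 or mouse 3 of ZT12, in turn) to 13 (without mouse 4 of ZT0), and was 5 without mouse 4 of ZT12. Complexes II to V had 3 of 42 lower (7.14%, below the 8.15% of all genes), a count of 0 without mouse 1 of ZT0, 1 without mouse 3 of ZT12 and 8 without mouse 4 of ZT0. Mitochondrial ribosomal proteins had 6 of 77 lower (7.79%, also below it), a count of 3 without mouse 1 or mouse 3 of ZT0 or mouse 3 of ZT12, 11 without mouse 1 of ZT12 and 13 without mouse 4 of ZT0. The member that changed most was Mrps6 at 28.8, 35.0, 30.1 and 28.9 CPM at ZT0 and 21.2, 19.0, 20.0 and 19.0 CPM at ZT12 (log2 fold change -0.63, SE 0.09, adjusted p 3.41e-05). None of 20 tricarboxylic acid cycle genes passed in edgeR or DESeq2, and 0 had an unadjusted edgeR p under 0.05. Of 40 tested SLC25 carriers of the inner membrane 8 were higher and 3 lower, and 3 of the 11 called differed within lane 2 or lane 3. Slc25a51, Slc25a33 and Slc25a16, given next, differed within neither lane (edgeR, lowest adjusted p 0.345, for Slc25a33 in lane 2). Their changes were not distinguishable from those between ZT3 and ZT15 (lowest adjusted p 0.193, for Slc25a16), so lane and time cannot be told apart for them. The NAD+ carrier Slc25a51 was at 391, 346, 421 and 292 CPM in the 4 mice of ZT0 and 679, 597, 518 and 469 CPM in those of ZT12, with no overlap (log2 fold change 0.64, SE 0.13, adjusted p 0.00125). The pyrimidine nucleotide carrier Slc25a33 was at 30.3, 29.7, 27.6 and 16.6 CPM at ZT0 and 53.2, 48.2, 39.0 and 44.1 CPM at ZT12 (log2 fold change 0.83, SE 0.15, adjusted p 0.000532), and Slc25a16 was at 72.1, 49.6, 57.6 and 53.8 CPM at ZT0 and 93.2, 83.6, 88.9 and 81.4 CPM at ZT12 (log2 fold change 0.57, SE 0.09, adjusted p 0.000120).

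Of 39 genes of glucose uptake and glycolysis 2 were higher and 4 lower, a share of 15.4% called that is near the 15.9% of all genes. The higher count was 1 without mouse 2 and 4 without mouse 4 of ZT0, and the lower count was 1 without mouse 3 of ZT0 and 2 without mouse 2, 3 or 4 of ZT12, in turn. The platelet-type phosphofructokinase Pfkp was at 142, 135, 169 and 99.6 CPM in the 4 mice of ZT0 and 80.3, 61.2, 55.1 and 57.4 CPM in those of ZT12. The mice did not overlap (log2 fold change -1.10, SE 0.20, adjusted p 0.000388). Pfkfb1, which makes and removes an activator of phosphofructokinase, was higher at 45.7, 51.5, 48.8 and 55.5 CPM at ZT0 and 73.8, 71.2, 75.4 and 74.9 CPM at ZT12 (log2 fold change 0.55, SE 0.11, adjusted p 0.00119). Of 20 glycogen genes 2 were higher and 2 lower (20% called), with 0 to 3 higher and 0 to 4 lower over the fits without 1 library, in the 8 libraries alone and without the muscle-rich ones. The phosphatase targeting subunit Ppp1r3c was lower at 225, 158, 285 and 139 CPM at ZT0 and 99.0, 72.0, 86.7 and 111 CPM at ZT12 (log2 fold change -1.13, SE 0.25, adjusted p 0.00291), and it averaged 67.4 CPM at ZT3 and 249 CPM at ZT15. The synthase Gys1 was higher at 276, 217, 291 and 248 CPM at ZT0 and 370.2, 337, 322 and 295 CPM at ZT12 (log2 fold change 0.36, SE 0.09, adjusted p 0.00493).

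Splicing proteins were lower in part. Of 42 tested SR proteins, hnRNPs and snRNP proteins 13 were lower and 2 higher, with a median log2 fold change of -0.17. Hnrnpc, which packages nascent transcripts, was at 93.6, 93.4, 92.8 and 87.3 CPM in the 4 mice of ZT0 and 62.3, 60.3, 63.5 and 71.5 CPM in those of ZT12. Its mice did not overlap (log2 fold change -0.51, SE 0.08, adjusted p 4.22e-05). The snRNP core proteins Snrpd3 (-0.44, adjusted p 0.00647) and Snrpb2 (-0.39, adjusted p 0.000589) fell and Hnrnpa1 rose (log2 fold change 0.36, SE 0.11, adjusted p 0.0208, and 0.0903 without mouse 3 of ZT0). The higher count was 1 in 6 of the 8 fits without 1 library, all but those without mouse 2 of ZT0 or mouse 2 of ZT12. The lower count was 7 without mouse 3 of ZT12, 6 with scaling by library size alone and 5 without the muscle-rich libraries.

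Cytosolic ribosomal proteins had 1 of 78 higher (1.28% called, below the background), Rpl3 (log2 fold change 0.39, SE 0.08, adjusted p 0.00188), and 4 without mouse 2 of ZT0. Reads of ribosomal protein genes can fall on their processed pseudogenes. Of 54 translation factors 4 were higher and 5 lower (16.7% called, near the background). The higher count was 2 without mouse 1 of ZT12, and the lower count was 3 without mouse 1, 1 without mouse 2 and 2 without mouse 3 of ZT0, and 1 without mouse 3 of ZT12. The lower count was 2 with scaling by library size alone, and without the muscle-rich libraries 0 were higher and 0 lower. The initiation factor Eif4b was at 137, 113, 109 and 116 CPM at ZT0 and 155, 164, 156 and 148 CPM at ZT12 (log2 fold change 0.39, SE 0.09, adjusted p 0.00228) and the cap-binding Eif4e at 58.3, 54.2, 61.3 and 51.4 CPM at ZT0 and 46.4, 47.0, 43.2 and 41.4 CPM at ZT12 (log2 fold change -0.34, SE 0.08, adjusted p 0.00260). Of 27 ribosome biogenesis genes 2 were higher (7.41% called, below the background), 1 without mouse 2 of ZT12, and 0 without mouse 3 or mouse 4 of ZT0, without mouse 1 or mouse 3 of ZT12, or in the 8 libraries alone. Proteasome subunits had 2 of 39 higher and 5 lower (17.9% called, near the background). The 2 higher, the immunoproteasome subunits Psmb8 and Psmb10, were not called without mouse 4 of ZT12, nor without mouse 1 or mouse 3 of ZT0. Psmb8 was at 15.0, 21.5, 16.6 and 19.1 CPM in the 4 mice of ZT0 and 22.1, 21.4, 20.1 and 73.3 CPM in those of ZT12 (log2 fold change 0.92, SE 0.28, adjusted p 0.0258, and 0.447 without mouse 4 of ZT12). The lower count was 0 in each fit without mouse 1 or mouse 3 of ZT0, or mouse 3 or mouse 4 of ZT12, and 2 without mouse 2 of ZT0, 3 without mouse 2 of ZT12 and 8 without mouse 4 of ZT0.

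Genes of intraflagellar transport and the BBSome, which build and serve the primary cilium, had 6 lower and 1 higher of 24 tested. Of these 7 called members 1 differed within lane 2 or lane 3. Ift140 was at 21.8, 20.1, 19.5 and 22.4 CPM in the 4 mice of ZT0 and 10.4, 13.5, 13.5 and 13.8 CPM in those of ZT12. Mouse 1 of ZT12 was lowest and no mouse of ZT12 reached those of ZT0 (log2 fold change -0.71, SE 0.11, adjusted p 9.26e-05). Bbs9 fell with 8.92, 8.12, 8.94 and 9.90 CPM at ZT0 and 5.40, 7.09, 6.07 and 5.70 CPM at ZT12 (log2 fold change -0.56, SE 0.11, adjusted p 0.00119). The higher count was 0 without mouse 2 or mouse 3 of ZT0 or mouse 1 or mouse 4 of ZT12. The lower count was 4 in 6 of the 8 fits that left out 1 library, namely without any 1 mouse of ZT0 or mouse 3 or mouse 4 of ZT12, 3 with library size scaling and 2 without the muscle-rich libraries.

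Large changes also occurred in single genes. Tshr, the thyrotropin receptor (ENSMUSG00000020963, chromosome 12, 91384563 to 91549808), was at 17.2, 23.4, 29.7 and 22.5 CPM in the 4 mice of ZT0 and 3.78, 2.50, 2.85 and 3.78 CPM in those of ZT12. The groups were separated by more than 10 CPM (log2 fold change -2.84, SE 0.27, adjusted p 3.27e-08), with a like change between ZT3 and ZT15 (0.23, adjusted p 0.736) and a difference within lane 2 (adjusted p 0.000622), from 25.1 CPM at ZT3 to 9.85 CPM at ZT6. E2f2, a transcription factor of the cell cycle (ENSMUSG00000018983, chromosome 4, 136172394 to 136196057), was at 31.3, 29.0, 38.0 and 28.3 CPM in the 4 mice of ZT0 and 4.62, 3.14, 3.28 and 2.63 CPM in those of ZT12. It dropped to 8.16 CPM by ZT6 and was back at 15.1 CPM at ZT15 (log2 fold change -3.21, SE 0.37, adjusted p 1.02e-06). Dtx4, a ubiquitin ligase of the Deltex family (ENSMUSG00000039982, chromosome 19, 12466338 to 12501454), was at 27.3, 26.7, 32.0 and 34.5 CPM at ZT0 and 4.68, 5.00, 4.19 and 4.00 CPM at ZT12 and had the lowest adjusted p of the genes outside the clock list (log2 fold change -2.75, SE 0.15, adjusted p 1.21e-12).

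Among the genes higher at ZT12, Inmt, a methyltransferase of indole amines, was at 2.31, 2.25, 3.16 and 2.73 CPM in the 4 mice of ZT0 and 11.5, 21.5, 14.7 and 13.4 CPM in those of ZT12. Each mouse of ZT12 was several times above those of ZT0 (log2 fold change 2.55, SE 0.34, adjusted p 9.06e-06). Pik3ip1, an inhibitor of phosphoinositide 3-kinase, was at 2.63, 2.31, 2.32 and 3.28 CPM at ZT0 and 6.43, 14.8, 18.6 and 14.0 CPM at ZT12 (log2 fold change 2.34, SE 0.47, adjusted p 0.000994). Ass1, argininosuccinate synthase, was at 0.706, 0.889, 0.775 and 0.945 CPM at ZT0 and 4.74, 2.44, 3.88 and 3.18 CPM at ZT12 (log2 fold change 2.09, SE 0.23, adjusted p 5.17e-07), and the mitochondrial folate enzyme Mthfd1l at 0.321, 0.237, 0.417 and 0.278 CPM at ZT0 and 1.38, 1.92, 2.19 and 2.19 CPM at ZT12 (log2 fold change 2.59, SE 0.39, adjusted p 3.97e-05).

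Of 41 tested cytochrome P450 and glutathione S-transferase genes 8 were higher and 1 lower, and 5 were higher without mouse 4 of ZT0 or mouse 4 of ZT12. None was lower without mouse 2 of ZT0 or mouse 1, 2 or 3 of ZT12. Gstt2 was at 20.7, 23.5, 17.4 and 22.1 CPM in the 4 mice of ZT0 and 45.9, 47.2, 48.7 and 45.0 CPM in those of ZT12, 2 groups without overlap (log2 fold change 1.16, SE 0.11, adjusted p 3.27e-08). It differed within lane 2 (adjusted p 3.33e-08) but not past the threshold within lane 3 (adjusted p 0.298). Cyp2e1, which oxidises ethanol and ketones, was at 68.7, 104, 82.5 and 41.4 CPM at ZT0 and 176, 311, 191 and 343 CPM at ZT12 (log2 fold change 1.78, SE 0.43, adjusted p 0.00568). Nrg4, a factor that brown fat secretes, was at 144, 109.6, 129 and 125 CPM at ZT0 and 205, 199.8, 204 and 208 CPM at ZT12 (log2 fold change 0.68, SE 0.09, adjusted p 8.08e-06). The transferrin receptor gene Tfrc was higher and spread widely (log2 fold change 1.26, SE 0.40, adjusted p 0.0295, and 0.0991 without mouse 4 of ZT12).

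In CPM, the largest differences among called genes were in mt-Rnr2, mt-Rnr1, Hsp90ab1, Scd2 and Me1 among those lower, and in Lpl, Car3, Dgat2, Glul and Acsl1 among those higher. Car3, a carbonic anhydrase of adipocytes, was at 5621, 5672, 4216 and 4933 CPM in the 4 mice of ZT0 and 6714, 6568, 6362 and 6565 CPM in those of ZT12. The mice of ZT12 were nearly alike and above those of ZT0 (log2 fold change 0.36, SE 0.11, adjusted p 0.0250, and 0.107 without mouse 3 of ZT0). Glul, glutamine synthetase, was at 2153, 1499, 1753 and 1144 CPM at ZT0 and 2548, 2650.0, 2471 and 2462 CPM at ZT12 (log2 fold change 0.63, SE 0.14, adjusted p 0.00232).

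Of 13 tested mitochondrial fusion and fission genes 3 were higher and 2 lower (38.5% called). Without mouse 2 of either time 1 was higher, as without the muscle-rich libraries, and the lower count was 1 without mouse 1 of ZT0 and 0 without the muscle-rich libraries or in the 8 libraries alone. Of 20 aminoacyl-tRNA synthetases, which charge tRNAs, 1 was higher and 3 lower (20% called), and the higher count was 0 without mouse 1 or mouse 2 of ZT0 or mouse 1, 2 or 3 of ZT12 and 2 without mouse 4 of ZT0. The lower count was 1 without mouse 2 or mouse 3 of ZT12, 5 without mouse 1 of ZT12 and 0 without the muscle-rich libraries. Fatty acid elongation and desaturation had 3 lower of 19 and none higher (15.8% called), with a lower count of 1 without mouse 3 of ZT0 and 0 without the muscle-rich libraries.

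The lists given next had called shares below the background. None of 27 antioxidant genes passed in edgeR or DESeq2, and 4 had an unadjusted edgeR p under 0.05. Interferon-stimulated genes had 1 higher and 1 lower of 29. Without mouse 1 or mouse 3 of ZT0 or mouse 4 of ZT12 the higher count was 0, and without mouse 1 or mouse 2 of ZT12 it was 3, while the lower count was 0 without mouse 2 or mouse 3 of ZT0 or mouse 1, 2 or 3 of ZT12 and 2 without mouse 4 of ZT12. Immediate early genes had 2 lower of 20, with Ier5 at 26.4, 24.0, 13.6 and 13.2 CPM at ZT0 and 4.32, 7.03, 5.71 and 9.15 CPM at ZT12 (log2 fold change -1.56, SE 0.28, adjusted p 0.000321), and 1 lower without mouse 2 or mouse 3 of either time. Cell cycle genes had 2 higher and 2 lower of 34, but 1 higher in 7 of the 8 fits without 1 library (all but that without mouse 4 of ZT0) and 1 lower without mouse 1 of ZT0 or mouse 4 of ZT12. Autophagy genes had 3 and 3 of 40 (1 higher without mouse 2 or mouse 3 of ZT0 or mouse 2 or mouse 4 of ZT12), and branched-chain amino acid breakdown had 1 higher of 25 (0 without mouse 3 of ZT0 or mouse 2 of ZT12, 2 without mouse 4 of ZT0 or mouse 1 of ZT12, 3 without mouse 1 of ZT0 or with DESeq2). Of the genes named whatever their test, Angptl4 (log2 fold change -0.77, SE 0.44, adjusted p 0.245), Pck1 (log2 fold change 0.67, SE 0.33, adjusted p 0.165), Pdk4 (log2 fold change 0.01, SE 0.34, adjusted p 0.988), Nampt (log2 fold change 0.25, SE 0.12, adjusted p 0.166), Pparg (log2 fold change -0.23, SE 0.17, adjusted p 0.363), Cebpa (log2 fold change 0.22, SE 0.15, adjusted p 0.340) and Slc2a4 (log2 fold change -0.28, SE 0.19, adjusted p 0.349) did not pass. Their errors allow differences of the size seen in the called genes, so these data cannot tell a difference of that size from none.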

How the data were processed

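Gene counts of 32 libraries of mouse iBAT total RNA (stranded, paired-end) were used as deposited. Per the labels and the study's methods, the authors aligned reads to mm10 with GSNAP and counted them per gene with HTSeq (0.6.1). Whether the counting used strand is not given in the sources used here. Groups came from the sample labels, 4 mice per time.

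All 32 libraries entered 1 fit in edgeR 4.0.16 (R 4.3.3), after filterByExpr by time point, which kept 15505 of 50686 genes and 99.9% of counts, and TMM scaling. ZT12 was contrasted with ZT0 by the quasi-likelihood test with Benjamini-Hochberg adjustment over all tested genes (threshold 0.05). The standard error is the log2 fold change divided by the root of the F statistic. A further contrast took the ZT15 against ZT3 change from it, and F tests compared the 3 times of each lane. CPM values are scaled by TMM. The scripts were tested on simulated data. Depth, 16300770 to 18187410 counts, puts 3 counts at 0.184 CPM or less, and this covers counting error only.

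Genes named are up to 3 called members per list with the largest change and a mean of at least 1 CPM, the 10 called genes outside the clock that were most higher and most lower without overlap of the mice, the 5 largest rises and falls in CPM, and a fixed set of metabolic genes. Members, lists and tests were chosen with earlier results of these data known, and other list members named were chosen after their values were seen. A few genes that the rule selects are not reported here. Alternatives were another scaling, DESeq2 1.42.0, no filter, the 8 libraries alone, no mitochondrially encoded genes, other thresholds, a replicate block and leaving out single libraries. Samples with the same replicate number did not deviate together (r of 0.43, -0.38, 0.20 and -0.33), so the numbers were not taken to pair mice.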

Additional observations from a re-analysis of the deposited data

Results flagged for a closer look

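For 55 named genes the change from ZT0 to ZT12 differed from that from ZT3 to ZT15 (edgeR quasi-likelihood test of the difference, adjusted p below 0.05). The same was true of 12.7% of all tested genes and of 39% of the called genes. Most named genes were chosen for their change from ZT0 to ZT12, which is part of this contrast, so selection raises their count. Where the first change was the more positive, the differences on the log2 scale were Dbp 3.10, 2010016I18Rik 2.30, Ddit4 2.17, Cirbp 2.14, Pdk4 2.07, Klf2 1.91, Pik3ip1 1.88, Acot4 1.61, Klf15 1.57, Pck1 1.56, Ass1 1.49, Slc27a2 1.41, Adcy9 1.40, Sgk1 1.25, Col5a1 1.09, Foxo1 0.99, Klf9 0.85, Cpt1a 0.84, Lrp1 0.82, Col5a3 0.80, Zfp516 0.79, Gstt2 0.76, Herpud1 0.55, Slc7a6 0.54, Eif4b 0.52 and Gys1 0.36. Where it was the more negative, they were Hspa1b -6.41, Hspa1a -6.27, Hsph1 -4.48, E2f2 -3.15, Ppp1r3c -3.01, P4ha1 -2.99, Hspa8 -2.004, mt-Rnr2 -1.92, Arntl -1.86, Mvd -1.81, mt-Rnr1 -1.65, Serpinh1 -1.43, Trib2 -1.42, Hsp90ab1 -1.15, Twnk -0.97, Dtx4 -0.81, Mrps6 -0.54, Ndufb2 -0.53, Mgme1 -0.53, Farsa -0.50, Ndufb4 -0.49, Ift140 -0.49, Atg12 -0.44, Uqcrb -0.44, Mrps17 -0.43, Mief1 -0.39, Hnrnpc -0.39, Eif4e -0.38 and Atp5h -0.30.

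In 19 of 322 groups of 4 mice (named genes and marker lists at each time, 5.901%) 1 mouse stood apart from the other three by Dixon's criterion, which chance gives in about 1 of 20 groups. At ZT0 these mice had Fkbp5 10.9 CPM, Col5a1 22.1 CPM, Timp2 38.2 CPM, Hnrnpc 87.3 CPM and Ripk4 1.56 CPM. At ZT12 they had Psmb8 73.3 CPM, Psmb10 41.9 CPM, Rpl3 63.9 CPM, Ndufb4 26.5 CPM, Me1 545 CPM, Sgk1 81.1 CPM, Ifi44 4.38 CPM, Ift140 10.4 CPM, Fam107a 1.98 CPM, Hsp90ab1 626 CPM, Pdk4 1046 CPM, Acly 3177 CPM and Lipe 1701 CPM. The sum of Schwann cell markers in 1 mouse of ZT0 was 188 CPM.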

How the results depend on the processing

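The 2459 called genes (1196 higher, 1263 lower) became 1259 (625 and 634) in a fit of the 8 libraries alone, 1130 (545 and 585) at a threshold of 0.01, 135 (52 and 83) against a 1.5-fold change, and 748 (361 and 387) without the 4 muscle-rich libraries, an alternative chosen after seeing the data that leaves 2 mice a time. Leaving out 1 library gave 1682 to 2684 called genes, 805 to 1256 higher and 877 to 1428 lower, with the lowest total without mouse 3 of ZT12 and the highest without mouse 4 of ZT0. DESeq2 called 2593 genes, and scaling by library size alone made 59.4% of calls higher, against 48.6% with TMM. With the replicate block 2385 genes were called (1135 higher, 1250 lower), and 1913 differed in their change from ZT3 to ZT15 against 1963 without it. The replicate numbers share no stated origin.

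Of 142 called named genes, 90 passed in each fit that left out 1 library, 40 did not pass in the 8 libraries alone, and none changed sign. Uncalled genes near 0 did: the log2 fold change of Ucp1 was -0.00445 with the replicate block and -0.28 to 0.22 over fits without 1 library, the log2 fold change of Pdk4 was -0.00546 without the muscle-rich libraries and -0.19 to 0.33, and the log2 fold change of Lipe was -0.00715 to 0.15. The cause of these shifts was not tested. With 4 mice a time, and lane tied to time, small differences and lane effects cannot be told apart.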
